A study of Mus musculus with 2 samples.

Results

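The regions described here are internal alternative promoters of protein-coding genes in adult mouse hippocampus, mapped as accessible chromatin by DNase-seq. A region was taken when a peak of replicate 1 overlapped a peak of replicate 2, lay within 500 bp of the start site of a protein-coding transcript at least 10000 bp downstream of the gene's 5'-most coding start site, and lay more than 1000 bp from any coding start site of another gene. Of the 104366 peaks of replicate 1 that were shared with replicate 2 (72.3% of 144270), 1109 met these rules. They lay at 900 start sites of 684 genes on 20 chromosomes. The 5'-most coding start site of the same gene is called its first promoter, and most comparisons set the internal promoter against it. The rules used position and presence in both replicates, and neither the height, the sequence nor the state of the first promoter.

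A gene with several promoters can make transcripts that begin at different places, each with its own first exon. The proteins made from them can differ at the amino terminus, or the same protein can come under a second set of regulatory sequences. Such genes are common in the brain, where dystrophin, ankyrins, cyclic AMP phosphodiesterases and Bdnf are textbook cases. DNase I cuts DNA that is not wrapped in nucleosomes or covered by proteins, so a peak of cuts marks an accessible element, and a short protected stretch inside it (a footprint) marks a candidate protein binding site. Many mammalian promoters lie in CpG islands, stretches in which the dinucleotide CG has not been depleted. An accessible promoter is not a measure of transcription, and no RNA was measured here.

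All samples belonged to 1 group, with 2 biological replicates. A replicate was a pool of 2 biosamples of hippocampus, labelled as a layer without saying which. The mice were B6CASTF1/J males (hybrids of C57BL/6J and CAST/EiJ) aged 8 to 10 months. The labels name 1 donor for both pools and do not say whether the pools share animals. With no other condition, the spread between the 2 replicates is the error, and comparisons are given without p-values. Values written with ± are the mean and SD of the 2 replicates (n = 2). In bulk tissue, fewer cells of a type and less accessibility per cell cannot be told apart.

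The files gave each peak a height in the authors' own units, whose scale is not stated. Below 200 steps, heights came in whole numbers of a smallest step (tolerance 0.1 step), which was 0.00656 in replicate 1 and 0.00646 in replicate 2. Taller peaks were not checked for this. That 1 step stands for 1 cut is an assumption. The median member stood at 177 steps in replicate 1 and 152 in replicate 2, which, if 1 step is 1 cut, gives a 95% Poisson interval of 0.997 to 1.35 around a height of 1.16 in replicate 1 and of 0.832 to 1.15 around 0.981 in replicate 2, for counting error only. The lowest members stood at 32 and 31 steps. Promoters of excitatory neuron markers were open in both replicates for 12 of 12 genes, with summed heights of 32.9 in replicate 1 and 25.6 in replicate 2. The counts were 9 of 12 for oligodendrocyte markers (summed heights 14.9 and 11.2), 9 of 12 for astrocytes (19.6 and 15.4), 4 of 10 for inhibitory neurons (3.16 and 2.92), 2 of 12 for microglia (5.56 and 3.81) and 2 of 10 for endothelial cells (2.06 and 1.34). Closed in both replicates were Dlx1, Dlx2 and Sst of inhibitory neurons, Gfap of astrocytes, Bcas1 of oligodendrocytes, Tmem119 of microglia and Cdh5 of endothelial cells, among others.

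The sequences below show how differently internal promoters are built. Each is the 150 bases just upstream of a start site, read 5' to 3' on the gene's strand from GRCm38 (mm10), with every CG in capitals. The first group holds tall internal promoters and those that stood highest above their first promoter, and Bicdl1 and Ndel1 bracket its CG content with 6 and 18 CG in the window.
Bicdl1 internal promoter, chr5:115652987-115653136, minus strand: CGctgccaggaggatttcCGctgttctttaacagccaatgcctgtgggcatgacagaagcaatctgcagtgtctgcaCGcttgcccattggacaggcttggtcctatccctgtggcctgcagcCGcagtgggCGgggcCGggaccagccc
Ndel1 internal promoter, chr11:68853136-68853285, minus strand: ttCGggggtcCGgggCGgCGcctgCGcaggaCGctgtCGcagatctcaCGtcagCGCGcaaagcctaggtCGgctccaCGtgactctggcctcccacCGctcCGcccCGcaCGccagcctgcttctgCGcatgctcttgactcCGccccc
Dcun1d4 internal promoter, chr5:73490875-73491024, plus strand: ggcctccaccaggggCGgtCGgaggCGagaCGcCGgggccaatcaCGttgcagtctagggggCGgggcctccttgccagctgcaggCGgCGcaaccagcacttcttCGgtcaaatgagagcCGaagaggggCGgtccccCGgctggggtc
Pnpla8 internal promoter, chr12:44268998-44269147, plus strand: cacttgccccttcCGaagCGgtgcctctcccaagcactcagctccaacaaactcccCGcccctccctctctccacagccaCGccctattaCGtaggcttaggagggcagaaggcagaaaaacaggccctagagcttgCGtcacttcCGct
Elavl2 internal promoter, chr4:91376497-91376646, minus strand: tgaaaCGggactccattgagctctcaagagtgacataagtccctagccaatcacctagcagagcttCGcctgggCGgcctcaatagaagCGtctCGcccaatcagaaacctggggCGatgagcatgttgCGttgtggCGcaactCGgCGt

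The next group shows an internal promoter of a gene known for multiple promoters, the protein kinase C gene Prkcz. With it are those of Fgd4 and Chn1, which lie in CpG-poor sequence, and of Pde4d, all 3 chosen after their values were seen. The windows held 4 CG in Fgd4, 2 in Chn1 and 6 in Pde4d, as many as in Prkcz. Over 500 bp to each side, the CpG observed/expected ratio at the Pde4d start site was 0.431. The median over internal start sites with a member was 0.463.
Prkcz internal promoter, chr4:155345773-155345922, minus strand: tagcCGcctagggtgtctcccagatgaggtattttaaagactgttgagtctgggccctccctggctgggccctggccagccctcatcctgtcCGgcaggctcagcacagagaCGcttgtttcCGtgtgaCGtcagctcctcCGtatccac
Fgd4 internal promoter, chr16:16560220-16560369, minus strand: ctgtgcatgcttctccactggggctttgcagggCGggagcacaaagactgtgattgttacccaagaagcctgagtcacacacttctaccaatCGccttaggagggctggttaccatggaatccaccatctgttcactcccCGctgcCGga
Chn1 internal promoter, chr2:73660407-73660556, minus strand: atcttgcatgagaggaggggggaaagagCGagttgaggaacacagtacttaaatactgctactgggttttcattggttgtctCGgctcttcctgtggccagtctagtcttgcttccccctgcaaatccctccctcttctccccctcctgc
Pde4d internal promoter, chr13:109926694-109926843, plus strand: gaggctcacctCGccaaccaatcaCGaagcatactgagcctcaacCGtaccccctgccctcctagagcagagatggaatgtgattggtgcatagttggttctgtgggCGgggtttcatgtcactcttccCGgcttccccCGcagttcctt

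The last group holds first promoters of 2 of these genes, also chosen after their values were seen.
Elavl2 first promoter, chr4:91399985-91400134, minus strand: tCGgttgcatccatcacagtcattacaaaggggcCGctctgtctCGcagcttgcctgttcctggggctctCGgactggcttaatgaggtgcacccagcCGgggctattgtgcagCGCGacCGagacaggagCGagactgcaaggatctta
Pnpla8 first promoter, chr12:44221220-44221369, plus strand: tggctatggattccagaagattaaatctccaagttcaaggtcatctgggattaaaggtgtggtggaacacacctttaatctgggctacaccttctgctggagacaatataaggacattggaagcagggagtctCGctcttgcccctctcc

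The window of Pnpla8 held 7 CG at the internal start site and 1 at the first. In Elavl2 the numbers in these short windows were close, 10 at the internal start site and 9 at the first. The letters GGGCGG (the core bound by SP and KLF factors, on either strand) were found in the windows of 7 of the 9 internal start sites shown and in neither of the first ones. The CRE letters TGACGTCA were found in the internal window of Prkcz alone.

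Internal start sites were open less often than first ones. Of 3305 internal start sites that met the distance rules, 1242 (37.6%) had a shared peak within 500 bp, against 12679 of 21851 5'-most coding start sites (58.0%). Each member was assigned to the nearest start site, which gave 900 start sites with a member of their own. A start site among the 1242 can lack one because its peak was assigned to a neighbour. It can also lack one because the distance to other genes was measured from the peak for members and from the start site here. These cases were not counted apart. By gene, 684 of the 1900 genes with such a start site (36.0%) had at least 1 internal promoter peak. Of these genes, 415 had 1 member, 175 had 2 and 94 had 3 or more, up to 10 in Pde4d. Genes with an internal promoter peak were longer than the others that had a start site to offer, with a median span of 110 kb against 68.9 kb for the 1216 genes without one. The median member lay 55288 bp downstream of the first start site, and the range ran to 2857159 bp. Peaks of replicate 1 can overlap each other: 99 members overlapped another member and 107 shared their peak of replicate 2 with another, so neighbouring members in 1 gene are not independent.

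Members lay on both sides of their start sites. Their centres lay a median of 12.5 bp upstream, 586 of the 1109 covered the start site itself, and 78 lay within 500 bp of a start site of a noncoding gene as well. Members over the start site had median heights of 1.38 in replicate 1 and 1.17 in replicate 2, and the 523 beside it 0.998 and 0.872. At the limit of 500 bp, 75 members lay over 400 bp away, with medians of 0.768 in replicate 1 and 0.762 in replicate 2, and 77 peaks lay just outside, up to 600 bp away, with 0.899 and 0.788. At the limit of 10000 bp, 19 members were at start sites under 11000 bp downstream (medians 2.05 and 1.54), and 36 peaks were at start sites at least 9000 bp and under 10000 bp downstream (2.22 and 1.92). The heights did not break at either limit.

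Internal promoters stood between first promoters and other intronic peaks in height, in footprints and in sequence. The 1109 members had median heights of 1.16 in replicate 1 and 0.981 in replicate 2. The 692 shared peaks at the first promoters of the same genes had 1.37 and 1.15, the 15150 at first promoters of all other coding genes 2.52 and 2.06, and the 6094 intronic peaks of the same genes, over 1000 bp from any coding start site, 0.827 and 0.717. Both replicates gave the same order. First promoters of genes with an internal promoter were thus lower than those of other genes by more than the gap between internal and first promoters of the same genes. A member held a median of 3 footprints in each replicate, against 4 at first promoters of both kinds and 2 at intronic peaks. No footprint was listed in 10.9% of members in replicate 1 and 9.02% in replicate 2. Both replicates also had the peak in their shorter, stricter list for 71.9% of members, against 78.3% at first promoters of the same genes, 86.4% at other first promoters and 53.6% at intronic peaks, beside 61.7% of all shared peaks.

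**Figure D1:**
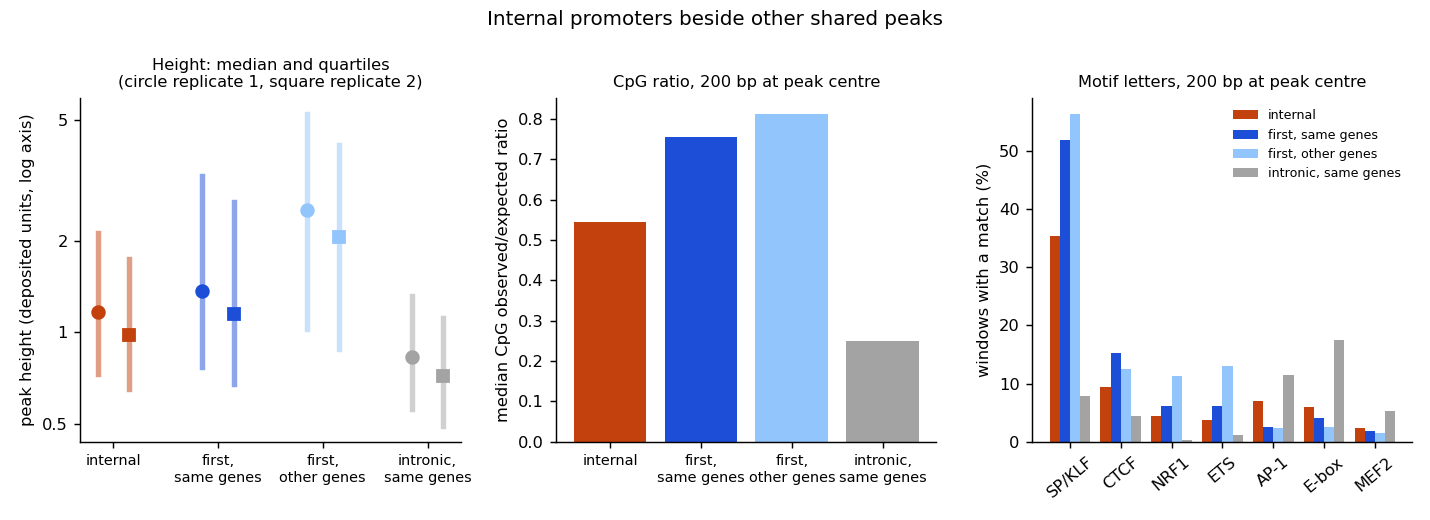
Left, median peak height (deposited units, log axis) with the quartiles as bars, circles for replicate 1 and squares for replicate 2. Middle, median CpG observed/expected ratio in 200 bp at the peak centre. Right, share of the same windows that hold the letters of 7 motifs. Internal promoters (n = 1109, orange) lie between first promoters (blue) and intronic peaks (grey) in height and in CpG ratio.

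The replicates agreed closely at internal promoters. Over the 1042 members that were each other's best overlap, the Spearman correlation of heights was 0.963, against 0.947 over all 101938 such pairs in the genome, a description across peaks and not a test. Replicate 1 was higher by a median log2 of 0.24 at members and of 0.19 at all pairs. After scaling to the latter, none of the members was over 2-fold apart, where 588 of all pairs (0.577%) were. This was not particular to internal promoters. At first promoters of the same genes 0 of 634 pairs were over 2-fold apart. The counts were 17 of 14533 (0.117%) at other first promoters and 20 of 5992 (0.334%) at intronic peaks. The members nearest to 2-fold on the side of replicate 1 were those of Togaram2 (heights 0.879 in replicate 1 and 0.387 in replicate 2), Synpr (0.518 and 0.232) and Triobp (1.11 and 0.504). On the side of replicate 2 they were those of Ttc6 (0.217 in replicate 1 and 0.362 in replicate 2), Pkia (0.328 and 0.536) and Nrg1 (0.899 and 1.43). Synpr encodes a synaptic vesicle protein, and Nrg1 the growth factor neuregulin 1. In 4 of these 6 genes the peak was under a height of 1 in both replicates.

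Members on chromosome X, 44 peaks of 26 genes, had median heights of 0.758 in replicate 1 and 0.575 in replicate 2, against 1.17 and 0.994 for the 1065 on autosomes. The mice were male, with a single X, and heights were not corrected for copy number, whose part in this difference was not tested.

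Open internal start sites had more CpG than closed ones. The CpG observed/expected ratio over 500 bp to each side had a median of 0.463 at the 900 start sites with a member and 0.231 at the 2063 internal start sites with no shared peak. Start sites were called CpG-rich at a ratio of at least 0.6 and a GC content of at least 50%. By that rule, 298 of the 900 (33.1%) were CpG-rich, against 47 of the 2063 (2.28%). First start sites of the same genes had a median of 0.599, with 49.1% CpG-rich. So 2 in 3 open internal start sites were not CpG-rich, and the closed ones almost never were.

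Members at CpG-rich start sites were taller and held more footprints. The 398 of them had median heights of 1.33 in replicate 1 and 1.18 in replicate 2 and means of 3.93 and 4.26 footprints, against 1.07 and 0.923 in height and 3.04 and 3.24 footprints for the 711 others. The CpG ratio and the height of the tallest internal promoter of a gene had a Spearman correlation of 0.346 in replicate 1 and 0.355 in replicate 2 across 684 genes, which share the library, and base composition can itself affect cutting and amplification. That effect was not tested.

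Motif letters were counted on both strands in 200 bp windows at the peak centre, and a match describes the letters and not a bound site. The SP/KLF letters GGGCGG were in 35.4% of members, 51.9% of first promoters of the same genes, 56.3% of other first promoters and 7.81% of intronic peaks. The NRF1 letters GCGCANGCG were in 4.51% of members, 6.21% and 11.3% of the 2 sets of first promoters and 0.230% of intronic peaks, and the ETS letters CCGGAAG in 3.79%, 6.07%, 13.1% and 1.13% of the same sets. All 3 strings contain CG, and members fell between the other sets for each. The part that CpG content itself had in these shares was not tested. The reverse held for the AP-1, E-box and MEF2 letters, which contain no CG and are common at enhancers. The AP-1 letters TGANTCA were in 7.03% of members, 2.60% of first promoters of the same genes, 2.42% of other first promoters and 11.5% of intronic peaks. For the neuronal E-box CAGATGG, the shares were 5.95%, 4.05%, 2.61% and 17.4%, and for the MEF2 letters CTANNNATA 2.34%, 1.88%, 1.59% and 5.33%. The TATA box TATAAA was in 3.34% of members, 2.46% of first promoters of the same genes, 2.48% of other first promoters and 7.19% of intronic peaks. Not all strings without CG had this order. The NFY letters GCCAAT were in 10.55% of members, 13.6% and 15.3% of the 2 sets of first promoters and 8.66% of intronic peaks.

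These shares differed with the class of start site. Among members at CpG-rich start sites 58.5% held the SP/KLF letters, against 22.5% at the others. Motif shares at first promoters were not split by CpG class, so they cannot be set beside these. For AP-1 the shares were 2.26% at CpG-rich and 9.70% at other start sites, for the E-box 2.26% and 8.02%, and for the TATA box 0.754% and 4.78%. The NFY letters GCCAAT went the same way, with 7.04% and 12.5%. CTCF letters (CAGNNGGCG, part of the site of that insulator protein) were in 15.3% and 6.05%. Members at start sites that were not CpG-rich thus held the SP/KLF and CTCF letters less often and the NFY, TATA, AP-1 and E-box letters more often. The first 2 strings contain CG and the other 4 do not. The classes were set by CpG and GC content around the same start sites, so this order is partly built into the split. The CRE letters TGACGTCA, which contain CG, went the other way, with 1.01% at CpG-rich and 2.11% at other start sites. Their AP-1, E-box and TATA shares were below those of intronic peaks.

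Nearly 3 in 4 genes with an internal promoter also had their first promoter open. A peak lay within 500 bp of the first start site in 501 of the 684 genes in replicate 1 (73.2%) and in 485 in replicate 2 (70.9%), a mean of 72.1% ± 1.65 (SD, n = 2). It was open in both replicates in 470 genes and closed in both in 168, with 31 open in replicate 1 alone and 15 in replicate 2 alone. Counting shared peaks, 69.0% of the 684 genes had an open first promoter, against 63.0% of the 1216 genes that had an internal start site to offer and no peak there. An open internal promoter therefore went with a slightly higher share of open first promoters, not a lower one, in sets of unlike gene length. The median spans were 110 kb and 68.9 kb. The open share also rose with the internal promoter's distance. It was 59.9% in replicate 1 and 55.9% in replicate 2 at 10 to 20 kb, and 85.9% in both beyond 200 kb. The part of gene length in the difference was not tested.

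Closed here means no called peak within 500 bp, and lower accessibility may have gone uncalled. As that rule implies, few bases were listed there: bases that the authors listed at a false discovery rate of 0.05 or less lay within 500 bp of 4 of the 168 first start sites in each replicate. Another upstream coding start site was open in 16 of these genes. The closed first start sites had a median CpG ratio of 0.248, and 9 of them (5.36%) were CpG-rich, against 0.718 and 315 of 470 (67.0%) at the open ones. The internal promoters of the 2 kinds of gene differed the other way. In genes with a closed first promoter, 81 of 168 tallest internal start sites (48.2%) were CpG-rich, with a median ratio of 0.581, against 130 of 470 (27.7%) and 0.422 in genes with an open one. So in genes with a closed first promoter the CpG-rich promoter was more often the internal one. Their median internal heights were 1.44 in replicate 1 and 1.18 in replicate 2, against 1.64 and 1.34 where the first promoter was open.

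**Figure D2:**
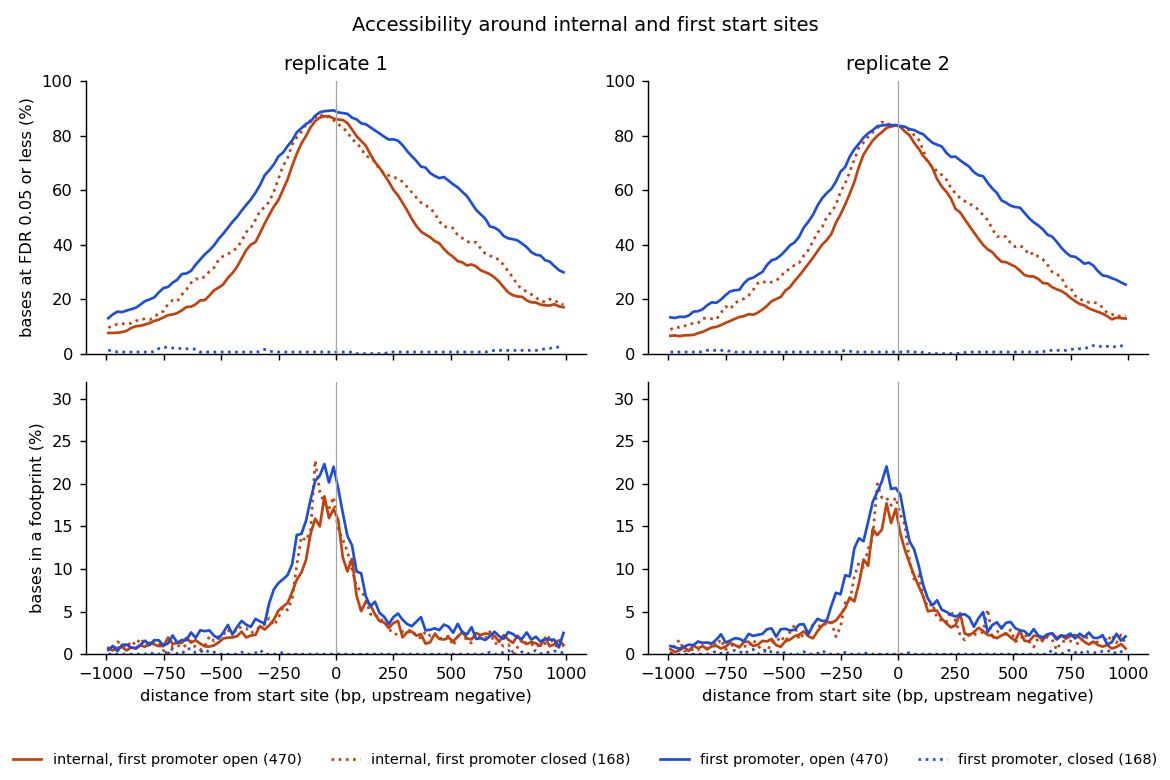
Share of bases at a deposited false discovery rate of 0.05 or less (top) and inside a footprint (bottom) by distance from the start site in bp, for the tallest internal start site (orange) and the first start site (blue) of each gene, in replicate 1 (left) and replicate 2 (right). Solid lines are the 470 genes with the first promoter open in both replicates and dotted lines the 168 with it closed in both, whose first start sites stay near 0 over the whole window.

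In the 470 genes with both promoters open, fewer bases were listed around internal than around first start sites. The share of listed bases at the centre says little, since these genes were taken for a peak at both places. In replicate 1 the share of listed bases peaked at 87.7% at 30 bp upstream of internal start sites and at 89.8% at 19 bp upstream of first start sites. In replicate 2 the peaks were 84.0% and 84.3%. Listed bases within 1000 bp to each side averaged 790 at internal and 1080 at first start sites in replicate 1, and 711 and 981 in replicate 2. Footprints covered at most 19.6% of sites at any position around internal start sites in replicate 1 and 19.1% in replicate 2, against 23.8% and 24.0% around first start sites, in each case just upstream. Over the 200 bp downstream of the start site, 78.4% of bases were listed at internal and 85.1% at first start sites in replicate 1, and 73.4% and 80.1% in replicate 2. Over the 200 bp upstream the shares were 81.5% and 85.5% in replicate 1, and 76.9% and 81.3% in replicate 2.

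Where both promoters were open, the internal one was usually the lower. Over 470 genes, the tallest internal promoter had a median height of 1.64 in replicate 1 and 1.34 in replicate 2, and the first promoter 1.98 and 1.59. The median log2 ratio of internal over first was -0.42 in replicate 1 and -0.44 in replicate 2, a mean of -0.43 ± 0.01 (SD, n = 2). The internal promoter was higher in both replicates in 171 genes, lower in both in 265 and mixed in 34. It was over 2-fold higher in both in 92 genes and over 2-fold lower in 142. These counts leave out the genes with no first peak. With the 168 closed first promoters set on the internal side, 339 of 684 genes (49.6%) had the taller internal promoter and 265 (38.7%) the lower one, but the rule required an internal peak and did not require a first one. The tallest of a gene's internal peaks was used, which raises the internal side in genes with several.

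The 2 heights in a gene were almost unrelated, with a Spearman correlation of 0.128 in replicate 1 and 0.114 in replicate 2 across 470 genes. CpG class ordered the ratio. With the internal start site CpG-rich and the first one not (48 genes), the median log2 ratio was 0.86 in replicate 1 and 0.47 in replicate 2. With both CpG-rich (82 genes) it was -0.18 and -0.03, with neither (107 genes) 0.08 and 0.00, and with the first CpG-rich alone (233 genes) -0.99 and -0.87. In that last class 161 internal promoters were lower in both replicates and 59 higher, and in the first class 30 were higher and 17 lower. The log2 ratio and the difference in CpG ratio had a Spearman correlation of 0.418 in replicate 1 and 0.407 in replicate 2.

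**Figure D3:**
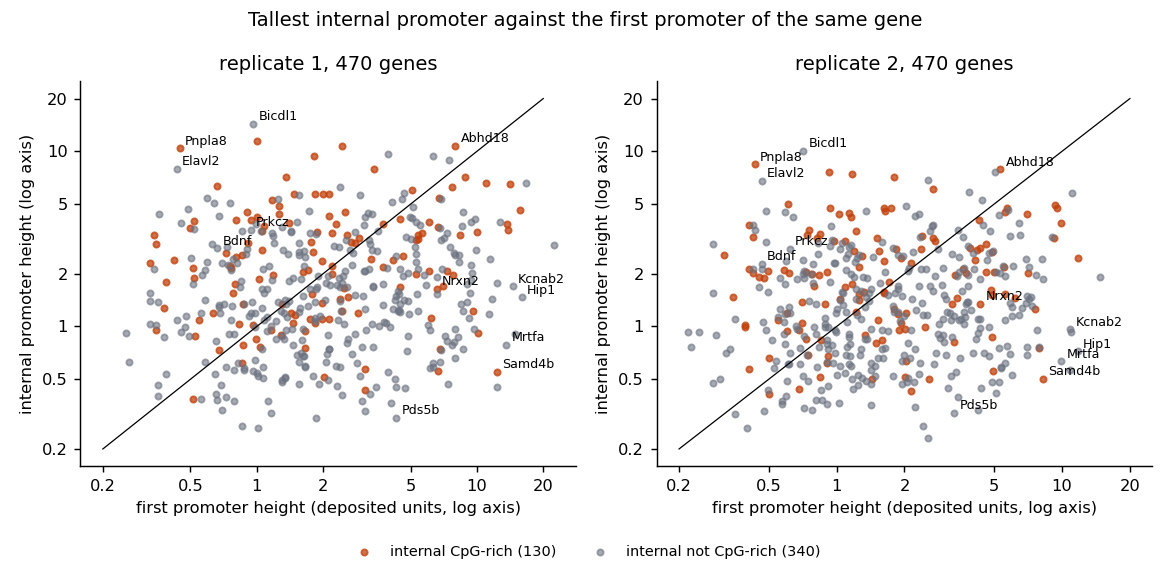
Height of the tallest internal promoter (vertical log axis) against that of the first promoter of the same gene (horizontal log axis) in 470 genes with both open, in replicate 1 (left) and replicate 2 (right), in deposited units. Orange points have a CpG-rich internal start site (130 genes) and grey ones do not (340). More points lie under the line of equal height than over it, and Pnpla8, Elavl2 and Bicdl1 lie far above it.

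Internal promoters close to the first one were taller and more often stood alone. The 152 genes whose tallest internal promoter lay 10 to 20 kb downstream had median internal heights of 2.07 in replicate 1 and 1.60 in replicate 2. In the 92 genes with it over 200 kb downstream the medians were 1.23 and 1.10. The share with an open first promoter ran the other way, at 59.9% and 55.9% in the nearest group and 85.9% in both replicates in the farthest. Median log2 ratios were -0.52 in both replicates at 10 to 20 kb, -0.63 and -0.60 at 20 to 50 kb, -0.37 and -0.50 at 50 to 100 kb, -0.11 and -0.00 at 100 to 200 kb, and -0.15 and -0.11 beyond. Far internal promoters were therefore lower in height and closer to their first promoter's height. CpG-rich start sites fell along the same groups, with 39.5% in the nearest and 20.7% in the farthest.

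Most internal start sites lay beyond the start codon used from the first promoter. Of the 900 start sites, 571 (63.4%) lay downstream of the start codon of the gene's first transcript, so that their transcripts begin translation elsewhere. At 242 (26.9%) the annotated transcript began translation at the same start codon as the first transcript, which leaves the protein's beginning as it was. Heights differed little by this class. Over the 470 genes with both promoters open, the median log2 ratio of internal over first was -0.39 in replicate 1 and -0.32 in replicate 2 in 300 genes with the internal start site downstream of the start codon, and -0.47 and -0.56 in the 170 with it upstream.

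The tallest internal promoter in replicate 1 belonged to Bicdl1, which encodes a dynein adaptor for vesicle transport. Its peak at chr5:115653021-115653300 lay at a start site 78635 bp downstream of the first, and had heights of 14.4 in replicate 1 and 10.0 in replicate 2. The first promoter had 0.965 and 0.710. The log2 ratio was 3.90 in replicate 1 and 3.82 in replicate 2. In replicate 2 the internal promoters of Zmynd8 and Glo1 were taller than that of Bicdl1. The CpG ratio was 0.493 at the internal and 0.957 at the first start site, so in Bicdl1 the CpG-poorer promoter was the taller.

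Others of the tallest promoters stood in genes with no peak at all at the first promoter. Glo1, which encodes glyoxalase I, the enzyme that clears methylglyoxal, had an internal peak at chr17:30612561-30612780 of 12.975 in replicate 1 and 11.3 in replicate 2. The peak of Ndel1, a partner of dynein and LIS1 in neuronal migration, had 13.3 and 9.24 and lay 18723 bp downstream. That of Dcun1d4, which takes part in attaching NEDD8 to cullins, had 13.1 and 9.11 and lay 10025 bp downstream, close to the limit of the rule. Zmynd8, a reader of histone marks, had 9.92 and 11.4 and was the only one of the 10 tallest genes that was higher in replicate 2. Rbpj, the DNA-binding partner of Notch, had 13.4 and 7.69, the widest gap of these genes.

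Tollip, an adaptor of Toll-like receptor signalling, had 10.4 in replicate 1 and 7.32 in replicate 2 and no first peak, with CpG ratios of 0.723 at the internal and 0.0725 at the first start site. Iffo2, an intermediate filament family member, had 10.3 and 6.06, with CpG ratios of 0.816 and 0.278. In each of the 8 tallest genes with a closed first promoter the internal start site had the higher CpG ratio.

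Among genes with both promoters open, Pnpla8 had the highest ratio. It encodes a calcium-independent phospholipase A2 of mitochondria and peroxisomes. The internal peak at chr12:44269041-44269240 had 10.4 in replicate 1 and 8.43 in replicate 2, and the first promoter 0.446 and 0.433, a log2 ratio of 4.42 ± 0.18 (SD, n = 2). The windows printed above belong to these 2 start sites, and the one with more CG is the internal one. Elavl2, a neuronal RNA-binding protein also called HuB, had 7.95 and 6.77 at chr4:91376441-91376680 against 0.433 and 0.465 at the first promoter, a log2 ratio of 4.03 ± 0.24 (SD, n = 2). Over 500 bp to each side the CpG ratio was 0.774 at the internal and 0.361 at the first start site, although the printed windows held 10 and 9 CG.

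Pfkfb2, which makes the activator of glycolysis fructose 2,6-bisphosphate, had 5.41 in replicate 1 and 4.59 in replicate 2 at the internal promoter against 0.597 and 0.484 at the first. Fgd4, an exchange factor for CDC42, had 4.71 and 3.57 at its internal promoter in CpG-poor sequence (ratio 0.260) against 0.486 and 0.433 at a first promoter with a ratio of 0.815. Zfp800, a zinc finger gene, had 3.35 and 2.57 against 0.341 and 0.316. In all 8 genes with the highest ratios the replicates of the 2 promoters did not overlap, which their selection for the highest ratios implies.

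The other end held genes whose internal promoter was a minor peak inside a gene with a very open first promoter. March3, a membrane ubiquitin ligase, had 0.453 in replicate 1 and 0.562 in replicate 2 at the internal promoter, against 12.4 and 10.9 at the first. Samd4b, an RNA-binding protein of the Smaug family, had 0.551 and 0.504 against 12.3 and 8.20. Mrtfa, a coactivator of serum response factor that responds to actin, had 0.788 and 0.633 against 13.6 and 9.90. Their log2 ratios were -4.52 ± 0.35, -4.25 ± 0.32 and -4.04 ± 0.10 (SD, n = 2). The other 5 of the 8 lowest, with mean log2 ratios between -3.78 and -3.53, were Entpd1 (an enzyme that breaks down extracellular ATP), Hip1 (a clathrin adaptor), Pds5b (a cohesin partner), Slc31a1 (a copper transporter) and Atp2b4 (a plasma membrane calcium pump). Samd4b had CpG ratios of 0.871 at the internal and 0.854 at the first start site, so a CpG-rich start site also went with a low peak. The Samd4b peak did not cover its start site, and neither did that of Pds5b, whose heights of 0.302 and 0.323 were among the lowest members named.

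**Figure D4:**
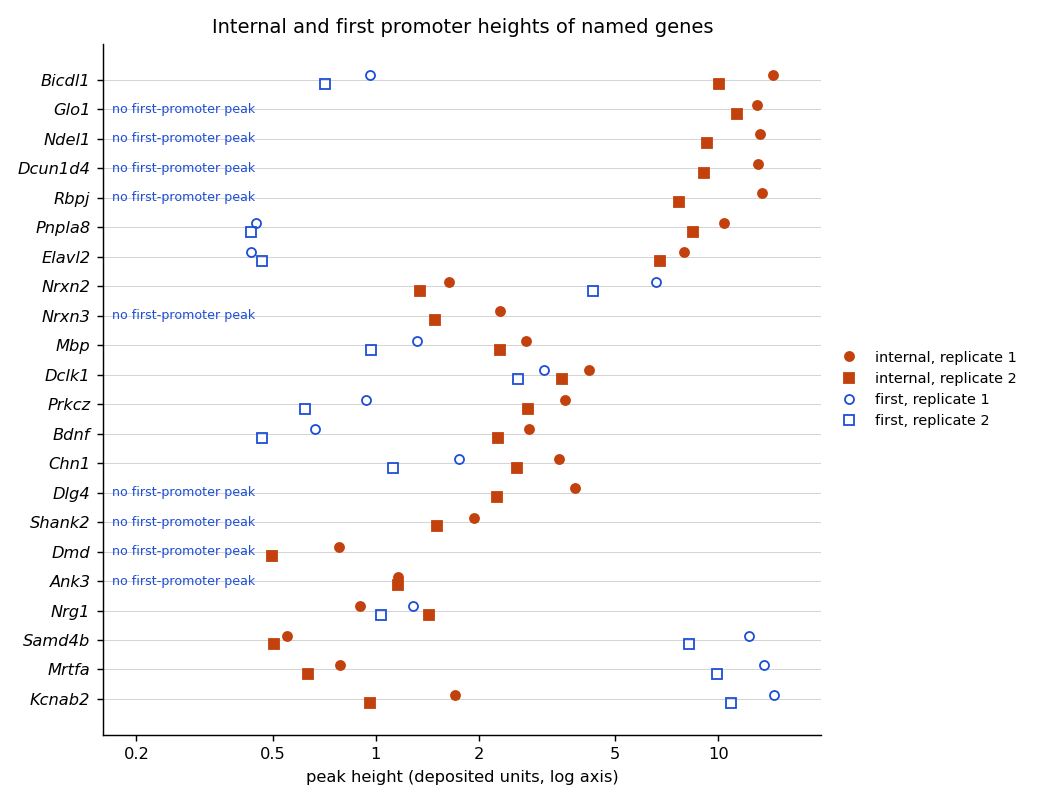
Peak heights in deposited units (log axis) of the tallest internal promoter (filled) and the first promoter (open symbols) of 22 named genes, with circles for replicate 1 and squares for replicate 2. Genes with no peak at the first promoter in either replicate are marked. Internal promoters stand to the right of first promoters down to Chn1 with the exception of Nrxn2, and to the left in Samd4b, Mrtfa and Kcnab2.

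Of 22 genes listed for known alternative promoters in brain that had an internal start site meeting the rules, 19 had an internal promoter peak, where the share over all such genes was 36.0%. The list was drawn up from textbook cases with results of these data known, so its count is a description. Some of its genes had many such start sites, up to 14 in Ank3 and 10 in Tcf4. Each start site is a further place for a peak, and the shares by gene were not matched for this. Shank3, Tcf12 and Mitf had such start sites and no peak. The 19 genes held 57 members, and their tallest internal promoters had median heights of 2.39 in replicate 1 and 2.07 in replicate 2, beside 1.55 and 1.28 over all 684 genes. In 14 of them both promoters were open, with median log2 ratios of 0.96 and 0.99, beside -0.42 and -0.44 over all 470. The internal promoter was higher in both replicates in 11 of the 14 and lower in both in 2. Taking the tallest peak raises the internal side in genes with several. This list held 57 members in 19 genes, beside 1109 in 684. In all 19 the tallest internal start site lay downstream of the first transcript's start codon, beside 410 of 684 (59.9%) over all genes. These start sites also lay farther from the first one, at a median of 219535 bp beside 47638.5 bp over all genes.

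Neurexins are presynaptic adhesion proteins whose genes make long forms from a first promoter and short forms from promoters deep inside. Nrxn3 had an internal peak of 2.30 in replicate 1 and 1.49 in replicate 2 at a start site 1017979 bp downstream and no peak at its first start site. Nrxn2 was the other way round, with 1.64 and 1.35 at the internal promoter against 6.57 and 4.32 at the first. These genes of 1 family thus had different balances of first and internal promoter.

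Prkcz makes the full-length protein kinase C zeta from its first promoter and a constitutively active short form, studied in memory, from an internal one. The internal peak at chr4:155345661-155345880 had 3.57 in replicate 1 and 2.78 in replicate 2, against 0.939 and 0.620 at the first promoter. The CpG ratio was 0.456 at the internal and 0.892 at the first start site, so the taller promoter was the CpG-poorer one. The printed internal window held the CRE letters, which were in 1.71% of all members and 2.02% of first promoters of the same genes.

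Mbp was the only oligodendrocyte marker with an internal start site that met the rules. Its first promoter makes Golli proteins and the internal one, 79324 bp downstream, the classic myelin basic protein. The internal peak had 2.74 in replicate 1 and 2.31 in replicate 2, against 1.32 and 0.969 at the first. Of the 3 excitatory neuron markers with an internal start site (Camk2a, Grik4 and Zbtb20) none had a peak there, and their first promoters were open.

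Bdnf, the neurotrophin with many promoters spliced to 1 coding exon, had 3 members. The tallest, at chr2:109694921-109695120, had 2.80 in replicate 1 and 2.27 in replicate 2. The others had 1.33 and 0.730, and 1.23 and 0.639, against 0.663 and 0.465 at the first promoter. All 3 were above the first promoter in each replicate. Dclk1, a microtubule-associated kinase, had 4.20 and 3.50 at its internal promoter 219535 bp downstream against 3.10 and 2.60 at the first. Tcf4, an E-protein transcription factor, had 4 members, the tallest with 4.43 and 3.75 against 3.20 and 2.65 at the first promoter.

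Chn1 and Chn2 encode chimaerins, RAC-inactivating proteins whose internal promoters lie far inside the genes. Chn1 had 3.44 in replicate 1 and 2.58 in replicate 2 at the internal promoter against 1.75 and 1.12 at the first, although the CpG ratio was 0.332 at the internal and 1.03 at the first start site. Chn2 had 0.886 and 0.704 against 0.492 and 0.620. The internal heights lay above the first ones in both genes, narrowly in replicate 2 for Chn2.

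Among scaffold proteins of the synapse, Dlg4 and Shank2 had internal promoters and closed first promoters. Dlg4, which encodes PSD-95, had 3.81 in replicate 1 and 2.26 in replicate 2 at a start site 12583 bp downstream. Shank2 had 4 members, the tallest with 1.93 and 1.51, 282511 bp downstream. Dlg2 had 0.847 and 0.930 at the internal promoter against 1.33 and 0.994 at the first, a narrow gap that did not overlap. Dmd, the dystrophin gene, makes a short form from a promoter near its end. Its member, 2099510 bp downstream, had 0.781 and 0.497, and the first promoter had no peak. Nrg1 had 0.899 and 1.43 against 1.29 and 1.03, so its 2 promoters overlapped in height. Ank3 (ankyrin G) had 1.16 in each replicate and a closed first promoter.

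The genes taken for the most members carried internal promoters at 2 or more separate places, with some members side by side or overlapping. Cacna1c tied with Gramd1b and Dnajc6 in number and is described below. Pde4d, a cyclic AMP phosphodiesterase with many isoforms that differ at the amino terminus, had 10 members at 6 start sites between 462 and 1273 kb downstream. The tallest, at the farthest of these start sites, had 3.60 in replicate 1 and 2.12 in replicate 2, and the first promoter had 0.518 and 0.426. Its other members ran between 0.591 and 1.23 in replicate 1. Ank2 (ankyrin B) had 7 members. The tallest, 90.0 kb downstream, had 3.71 and 2.83, those at 337 kb had up to 2.22 and 1.99, and that at 501 kb had 1.88 and 1.68, against 1.31 and 1.14 at the first promoter. The CpG ratio was 0.412 at the tallest and 0.272 at the farthest internal start site, against 0.733 at the first.

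Gnas is the imprinted gene of the stimulatory G protein alpha subunit, whose promoters make a secretory protein, an extra-large form, an untranslated transcript and the alpha subunit itself, in that order along the gene. Its 7 members fell into a peak 13.5 kb downstream with 0.361 in replicate 1 and 0.394 in replicate 2, a pair at 43.4 kb with up to 2.39 and 2.07, and 4 at 45.7 to 46.0 kb with up to 1.27 and 1.43. The first promoter had 0.420 and 0.497. Gramd1b, a carrier of cholesterol between membranes, had 6 members, of which those at 139, 155 and 185 kb reached 2.96, 2.35 and 2.48 in replicate 1, against 0.623 at the first promoter. In replicate 2 they reached 2.35, 1.94 and 2.77, against 0.594. Dnajc6, which encodes auxilin, the uncoating partner of clathrin in synaptic vesicles, had 2.34 and 2.08 at 11.4 kb against 0.597 and 0.717. Its 5 further members sat close together at 53.8 to 53.9 kb, some of them overlapping or sharing a peak of replicate 2, and all were lower, at most 1.12 and 0.827.

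**Figure D5:**
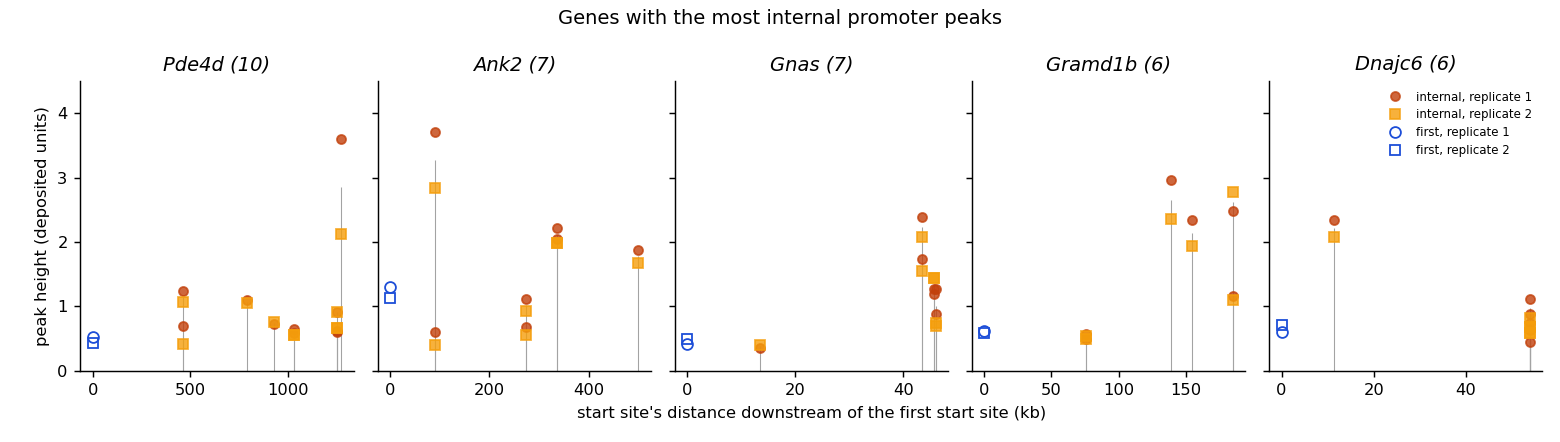
Heights of every internal promoter peak of the 5 genes with the most of them (number in brackets), in deposited units, by the distance of the start site from the first start site in kb. Filled symbols are internal promoters and open blue symbols the first promoter at 0, with circles for replicate 1 and squares for replicate 2, and grey lines reach to the mean of the replicates. In each gene shown the tallest internal promoter stands above the first. Cacna1c, which had as many members as Gramd1b and Dnajc6 and no first peak, is not shown.

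Other lists of genes, drawn up for families known for long genes and many isoforms, differed in how often an internal promoter was open and in its balance with the first. Among genes with an internal start site, 10 of 11 in the cell adhesion list, which also holds scaffold genes, had an internal peak. Internal peaks were found in 9 of 11 channel genes and 12 of 15 genes of exchange factors and activating proteins of small GTPases. The counts were 13 of 18 for cytoskeletal linkers and 12 of 19 for transcription factors. They were 8 of 13 for phosphodiesterases and 5 of 9 for kinases, again beside 36.0% of all such genes. These lists too were chosen with results known, their genes are long, and the number of start sites per gene was not matched. They also share genes with the multi-promoter list, so their counts are not separate observations. Shared genes were Dclk1, Prkcz, Chn1, Chn2, Pde4b, Pde4d, Tcf4, Ank3, Dmd, Dlg2 and Dlg4.

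In the cell adhesion list the internal promoter was usually lower than the first. Besides adhesion proteins, the list held the scaffold genes Magi1, Magi2, Dlg1, Dlg2 and Dlg4, and the 2 kinds were not split. The 10 genes of this list had median internal heights of 1.29 in replicate 1 and 1.13 in replicate 2. Medians were lower in the lists of transcription factors (1.18 and 0.859), channels (1.14 and 0.923) and phosphodiesterases (1.20 and 1.06). Of 9 genes of the list with both promoters open, the internal one was lower in both replicates in 8 and higher in 1. Lsamp, a neuronal adhesion protein of the immunoglobulin family, had 1.42 and 1.24 at a start site 1548487 bp downstream against 4.23 and 3.96 at the first promoter. Cntn4, a contactin, had 1.38 and 1.41 against 1.25 and 1.03. The median log2 ratios of the list were -0.84 in replicate 1 and -0.67 in replicate 2, beside -0.42 and -0.44 over all genes.

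The channel list stood lower still, with medians of -1.79 in replicate 1 and -1.68 in replicate 2 over the 5 genes with both promoters open, of which 4 were lower at the internal promoter in both replicates and none higher. Kcnab2, a beta subunit of potassium channels, had 1.70 and 0.962 at the internal promoter against 14.5 and 10.9 at the first. The calcium channel genes varied. Cacnb2, a beta subunit, had 0.518 and 0.594 against 1.80 and 1.16, lower in both replicates. Cacna2d3 had 1.14 and 0.949 against 1.11 and 0.981, with ranges that overlap. Cacna1c, the L-type channel subunit, had 6 members, the tallest with 2.27 and 1.59 at a start site with a CpG ratio of 1.05, and a first start site with a ratio of 0.292 and no peak. Cacnb4 had 2.07 and 1.76, and a first promoter of 0.709 in replicate 1 that was not called in replicate 2.

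In the small GTPase list the median log2 ratio was 0.19 in replicate 1 and 0.18 in replicate 2 over 9 genes, of which 5 were higher at the internal promoter in both replicates and 3 lower. Arhgef3, a guanine nucleotide exchange factor, had 3.50 and 2.32 at its internal promoter and no first peak, although both of its start sites had CpG ratios near 0.6 (0.584 at the internal and 0.619 at the first). The transcription factor list had medians of 0.47 and 0.50 over 9 genes, with 5 higher and 4 lower in both replicates. Nfix, a nuclear factor I gene, had 3.43 and 2.45 against 1.17 and 1.10, with CpG ratios of 0.420 at the internal and 1.12 at the first start site. Nfic of the same family had 2.17 and 1.81 and a first promoter of 0.348 in replicate 1 alone.

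Among the linkers of the cytoskeleton, 4 of 10 genes were higher at the internal promoter in both replicates and 4 lower, with median log2 ratios of -0.07 in replicate 1 and 0.16 in replicate 2. Map2, the dendritic microtubule protein, had 3.13 in replicate 1 and 2.67 in replicate 2 against 3.22 and 2.18, which overlap. Map4, the widely expressed relative, had 2.74 and 2.43 against 9.95 and 6.93. In the phosphodiesterase list 4 of 8 were higher in both replicates and 3 lower, with medians of 0.08 and 0.34. Pde2a, which is stimulated by cyclic GMP, had 2.96 and 3.22 against 3.26 and 2.34, again overlapping, and Pde4a 1.73 and 1.65 against 2.32 and 1.88. Pde4b had 1.20 and 1.13 against 0.558 and 0.549. Of 4 kinase genes with both promoters open, 3 were higher at the internal promoter in both replicates and 1 lower. Dclk1 and Prkcz of the multi-promoter list were among the higher ones. Dgkz, a diacylglycerol kinase, had the tallest internal promoter of the list with 5.17 and 4.07, at a CpG ratio of 0.901, and a first promoter of 0.637 that was called in replicate 1 alone.

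The 5'-most annotated start site is a position in the gene models and need not be the one most used. Of the 684 first start sites, 72 lay within 1000 bp of another gene's coding start site, so that an open first promoter there may belong to the neighbour as well. Abhd18, a hydrolase family gene, had 10.7 in replicate 1 and 7.88 in replicate 2 at its internal promoter and 7.97 and 5.31 at its first, and was the most balanced of the tallest genes. Mapre2, which encodes a protein of microtubule ends, had 10.7 and 7.13 at the internal promoter against 2.45 and 1.80 at the first.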

How the data were processed

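DNase-seq of hippocampus was deposited for 2 samples, biological replicates 1 and 2. Per the labels the assembly was mm10, with aligner and callers not given in the sources used here. The authors deposited, for each sample, 2 peak lists with a height per peak (a signal whose scale is not stated), intervals with a false discovery rate of the cut rate (a q-value), and footprints with the constant 0.01 in every row, taken for a threshold on a p-value. The longer peak lists (144270 and 124426 peaks, false discovery rate up to 0.05) were used, and the shorter ones (87039 and 74088) as an alternative. Mapping of CAST/EiJ reads against C57BL/6J ones was not analysed here.

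Start sites came from coding transcripts of GENCODE M21 (basic set) and sequence from GRCm38 (RefSeq), whose chromosomes match mm10. Overlaps of 1 bp counted as shared. A first promoter was open when a peak lay within 500 bp. The tallest internal peak by mean height stood for a gene. Heights were paired between replicates where each peak was the other's best overlap. Motifs (13) were exact strings. Work was done in Python 3.11.15 with numpy 2.4.6, pandas 2.3.3, pysam 0.24.0 and scipy 1.17.1, with figures in matplotlib 3.10.9, and the steps were tested on simulated data.

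Members and gene lists were chosen with earlier results of these data known. Genes were named by rule: the 10 tallest internal promoters, the 8 highest and the 8 lowest ratios to the first promoter, the 8 tallest with no first peak, the 5 with most members, up to 3 per list, the 3 largest replicate differences in each direction and all listed multi-promoter genes, while predicted models (8 of 684 genes) were only counted and some genes that the rule takes are not reported here. Sequence was shown by the same rule except on chromosome 18 and where the window overlapped an annotated exon of a coding transcript. With 1 group there is no test and no p-value.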

Additional observations from a re-analysis of the deposited data

How the results depend on the processing

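No paired analysis was possible because the series has 1 group. The 1109 members became 788 to 1403 under the 9 alternatives for the rule. The share of open internal start sites (37.6%) was 30.2% with the shorter lists, 34.6% with a reciprocal overlap of 50%, 34.9% within 250 bp and 41.4% within 1000 bp, and 39.3% to 41.8% in 1 replicate alone. The share of genes with an open first promoter (72.1%) was 62.1% with the shorter lists, 74.3% with a 1000 bp window, 75.2% with any upstream coding start site, 76.1% for start sites 20000 bp downstream, and 70.9% to 73.2% in 1 replicate alone. The median log2 ratio of internal over first (-0.43) stayed below 0, at -0.46 with the 1000 bp window, -0.40 with any upstream start site, -0.36 at 20000 bp, -0.46 with the nearest peak, and -0.44 to -0.42 in 1 replicate alone. With the shorter lists the median height of members (1.07, mean of both replicates) was 1.44 and the median number of footprints 4, a list that leaves out low peaks. In 1 replicate alone the height was 0.981 to 1.16 and the median number of footprints 3 to 3. The excess of replicate 1 (log2 0.24) was 0.055 after scaling to all pairs. Start sites beyond the first start codon (63.4%) were 69.3% at 20000 bp. Motif shares moved beyond counting error in 14 of 39 alternatives and 1 of 18 alternatives for gene lists changed a count by over 1.5 times (channels, 5 with the shorter lists against 9). The log2 ratios of internal over first and of replicate 1 over replicate 2 did not change sign, and the other values cannot be negative. Of all 104 alternatives, 72 stayed within the limits set for them and 32 moved beyond. Causes were not tested. The lowest member stood at 32 steps in replicate 1 and 31 in replicate 2, and the height below which a promoter goes uncalled was not determined.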
